A study of Rattus norvegicus with 9 samples.

Results

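Interferon-stimulated genes are the genes that a cell switches on when it meets an interferon, and innate sensing genes encode the receptors that detect viral or misplaced nucleic acid and start interferon production. A set of 49 such genes was followed in RNA-seq of rat spinal cord. Members were chosen by gene symbol from knowledge of the pathway, with earlier results of these data known. Where a symbol had several rows in the gene count table the row with the highest total was used. Of the 49, 47 had a row among the 30507 rows of the table, while Isg15 and Irf9 had none of that symbol and are not analysed here. All 47 passed the filter on low counts in every comparison.

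The tissue was the T9 to T11 spinal cord segment of female Sprague-Dawley rats, taken 35 days after surgery, with 3 libraries in each of 3 groups. The rats are given as 8 weeks old at the start, and their age at surgery is not stated. By the methods of the study, Sham rats had the laminectomy without a contusion. The sample labels call these rats normal and untreated, and the methods were followed here. SCI rats had a contusion injury at T10, and SCI + SCS rats had the same injury followed by epidural stimulation of the cord at 10 kHz for 2 h each day from day 1. The electrode was implanted only in the stimulated rats among the sequenced groups, so implantation and current cannot be told apart in these libraries. The tissue was whole cord, and in such bulk samples a change in the number of cells of a type and a change in RNA per cell cannot be told apart.

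In this pathway, sensors such as cGAS (cytosolic DNA) and MDA5, the product of Ifih1 (double-stranded RNA), signal through adaptors to IRF3 and IRF7, which turn on interferon genes. Secreted interferon then acts on receptors that signal through JAK kinases to STAT proteins. Promoters of the target genes often carry the interferon-stimulated response element (ISRE), or the gamma-activated site (GAS), which serves mainly the response to interferon-gamma. In the central nervous system, microglia, infiltrating macrophages, astrocytes and endothelial cells can all raise these genes.

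The libraries held 62844376 to 88358570 counts, so a count of 3 corresponded to 0.034 to 0.0477 CPM (counts scaled to library size, here with edgeR's TMM factors). The summed level of 11 of 12 listed microglia and macrophage markers was 325.7 to 588.1 CPM in Sham, 1990 to 2629 CPM in SCI and 1784 to 2048 CPM in SCI + SCS libraries, and none of the 11 was at 0 in all libraries. The corresponding ranges were 346 to 1461, 2348 to 3496 and 1473 to 2429 CPM for 5 fibroblast markers, and 21.9 to 58.5, 138.7 to 198.9 and 113.9 to 151.1 CPM for 9 T and NK cell markers. Cd4, which microglia and macrophages can also express, made up most of the T and NK cell sum (21.1 to 56.8, 106 to 172 and 99.1 to 139 CPM), whereas Cd8a was at 0.204 to 0.368, 10.8 to 14.6 and 6.34 to 11.2 CPM. The 6 neuron markers summed to 2317 to 4513 CPM in Sham, 355.6 to 1207 CPM in SCI and 1122 to 1804 CPM in SCI + SCS. The 5 skeletal muscle markers with a row stood at 2985 CPM in SCI replicate 1 and 873.9 CPM in SCI replicate 3, against at most 41 CPM in each other library. The part of these differences in the results below was not tested.

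Promoters were examined for 38 of the 49 members that matched the RefSeq promoter table (assembly GRCr8), each a window of 300 bases from 250 before to 50 after the annotated start. The ISRE core was searched as GAAANNGAAA and the GAS as TTCNNNGAA, on both strands. The ISRE core was found in 22 of the 38 windows (57.9%), against 3.92% of all 33469 windows in the table. The GAS was found in 9 (23.7%), against 8.87% of all windows. Both were found in 5 member windows (13.2%, against 0.514% of all), and neither in 12 (31.6%, against 87.7%).

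The motifs were counted by role, and differences between roles were not tested. Of the transcription factors, 1 of 7 windows held the ISRE core (Irf7) and 3 of 7 the GAS (Irf1, Irf8 and Irf9). The ISRE core was present in 7 of 10 antiviral effector windows, 5 of 6 GTPase windows and 5 of 6 windows of other interferon-stimulated genes, whereas the GAS was present in 2, 3 and 0 of these. The matches do not describe binding, and windows without a match may hold variants of the motif or sites outside the 300 bases.

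**Figure D1:**
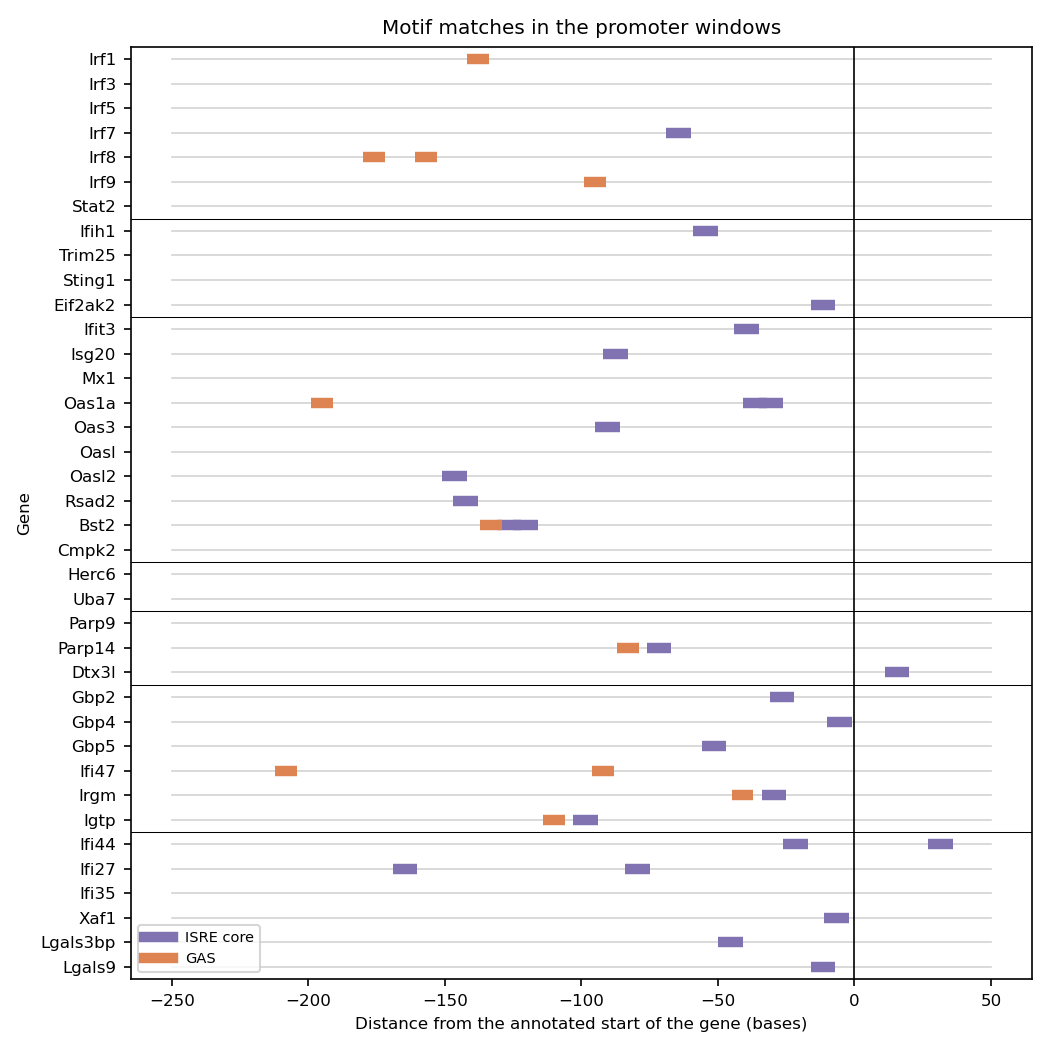
Positions of ISRE core matches (purple) and GAS matches (orange) along the promoter windows of the 38 members with a RefSeq promoter, grouped by role, with the x axis in bases from the annotated gene start. The ISRE core was found in 22 windows and the GAS in 9, and most ISRE core matches lay just before the start.

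The windows shown are those of the 6 called members that rose most after injury, did not overlap with Sham and had a promoter in the table. They were chosen by this rule and not by motif content. Capitals mark the motif matches, and each window is written along the strand of its gene in GRCr8 coordinates (Mx1, chr11:50294557-50294856, minus; Oasl, chr12:47356243-47356542, minus; Gbp2, chr2:234005477-234005776, plus; Ifi47, chr10:33798494-33798793, plus; Irf7, chr1:205799974-205800273, minus; Oas1a, chr12:41330216-41330515, plus).
Mx1: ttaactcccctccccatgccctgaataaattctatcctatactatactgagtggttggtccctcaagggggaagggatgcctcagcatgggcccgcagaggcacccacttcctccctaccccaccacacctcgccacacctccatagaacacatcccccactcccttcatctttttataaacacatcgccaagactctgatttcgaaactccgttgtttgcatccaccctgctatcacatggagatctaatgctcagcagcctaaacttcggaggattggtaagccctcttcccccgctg
Oasl: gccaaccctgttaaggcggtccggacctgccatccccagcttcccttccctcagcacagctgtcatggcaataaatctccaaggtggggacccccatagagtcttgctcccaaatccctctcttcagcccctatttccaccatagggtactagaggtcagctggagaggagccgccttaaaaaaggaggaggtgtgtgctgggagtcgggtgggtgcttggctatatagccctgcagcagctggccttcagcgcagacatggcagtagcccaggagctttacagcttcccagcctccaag
Gbp2: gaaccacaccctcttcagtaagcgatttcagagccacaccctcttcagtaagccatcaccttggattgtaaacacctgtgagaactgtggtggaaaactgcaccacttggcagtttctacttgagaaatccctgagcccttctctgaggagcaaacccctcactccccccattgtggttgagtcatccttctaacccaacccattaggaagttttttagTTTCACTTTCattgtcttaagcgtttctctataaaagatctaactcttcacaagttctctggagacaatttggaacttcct
Ifi47: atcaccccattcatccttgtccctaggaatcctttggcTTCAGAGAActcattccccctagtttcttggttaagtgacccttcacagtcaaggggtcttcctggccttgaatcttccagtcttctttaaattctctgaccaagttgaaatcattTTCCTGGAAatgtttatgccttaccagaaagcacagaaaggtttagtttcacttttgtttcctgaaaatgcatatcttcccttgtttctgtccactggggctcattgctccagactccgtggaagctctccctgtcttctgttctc
Irf7: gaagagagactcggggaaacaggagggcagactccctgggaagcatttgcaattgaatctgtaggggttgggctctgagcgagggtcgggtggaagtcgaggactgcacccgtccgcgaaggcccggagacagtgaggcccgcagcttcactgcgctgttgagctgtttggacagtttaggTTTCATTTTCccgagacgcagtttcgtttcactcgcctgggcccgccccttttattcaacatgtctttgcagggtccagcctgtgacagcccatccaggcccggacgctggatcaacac
Oas1a: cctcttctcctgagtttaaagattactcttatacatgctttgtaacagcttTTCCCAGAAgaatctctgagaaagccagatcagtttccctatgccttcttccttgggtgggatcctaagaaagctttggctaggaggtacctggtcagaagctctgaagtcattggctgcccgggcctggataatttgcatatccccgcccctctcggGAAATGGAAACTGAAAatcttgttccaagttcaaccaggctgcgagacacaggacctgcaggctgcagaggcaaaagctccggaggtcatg

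Oas1a had a pair of overlapping ISRE core matches and 1 GAS, Gbp2 and Irf7 had 1 ISRE core each, and Ifi47 had a GAS at 2 places with no ISRE core in these letters. No match was found in the windows of Mx1 and Oasl, the members with the largest differences of the 6. Among members with counts, the ISRE core was present in 17 of 29 windows of those called higher after injury (58.6%) and in 5 of 8 of those not called (62.5%). The GAS was present in 8 of the 29 (27.6%) and in 0 of the 8.

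The first comparison asked how contusion altered these genes in the chronic phase. In SCI against Sham, 36 of the 47 members rose by more than 1 on the log2 scale with an adjusted p under 0.05 (edgeR quasi-likelihood test, Benjamini-Hochberg), where 13.4% of 17822 tested genes did. No member fell, where 13.6% of genes did. Without the fold threshold 40 members were higher, against 24.3% of all genes. The libraries of SCI lay above every Sham library for 42 members, against 32.5% of all genes. The median log2 difference of the members was 1.50, while that of all tested genes was 0.015. Since the members were chosen with earlier results known, the shares here and in the later comparisons are descriptions and not tests.

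**Figure D2:**
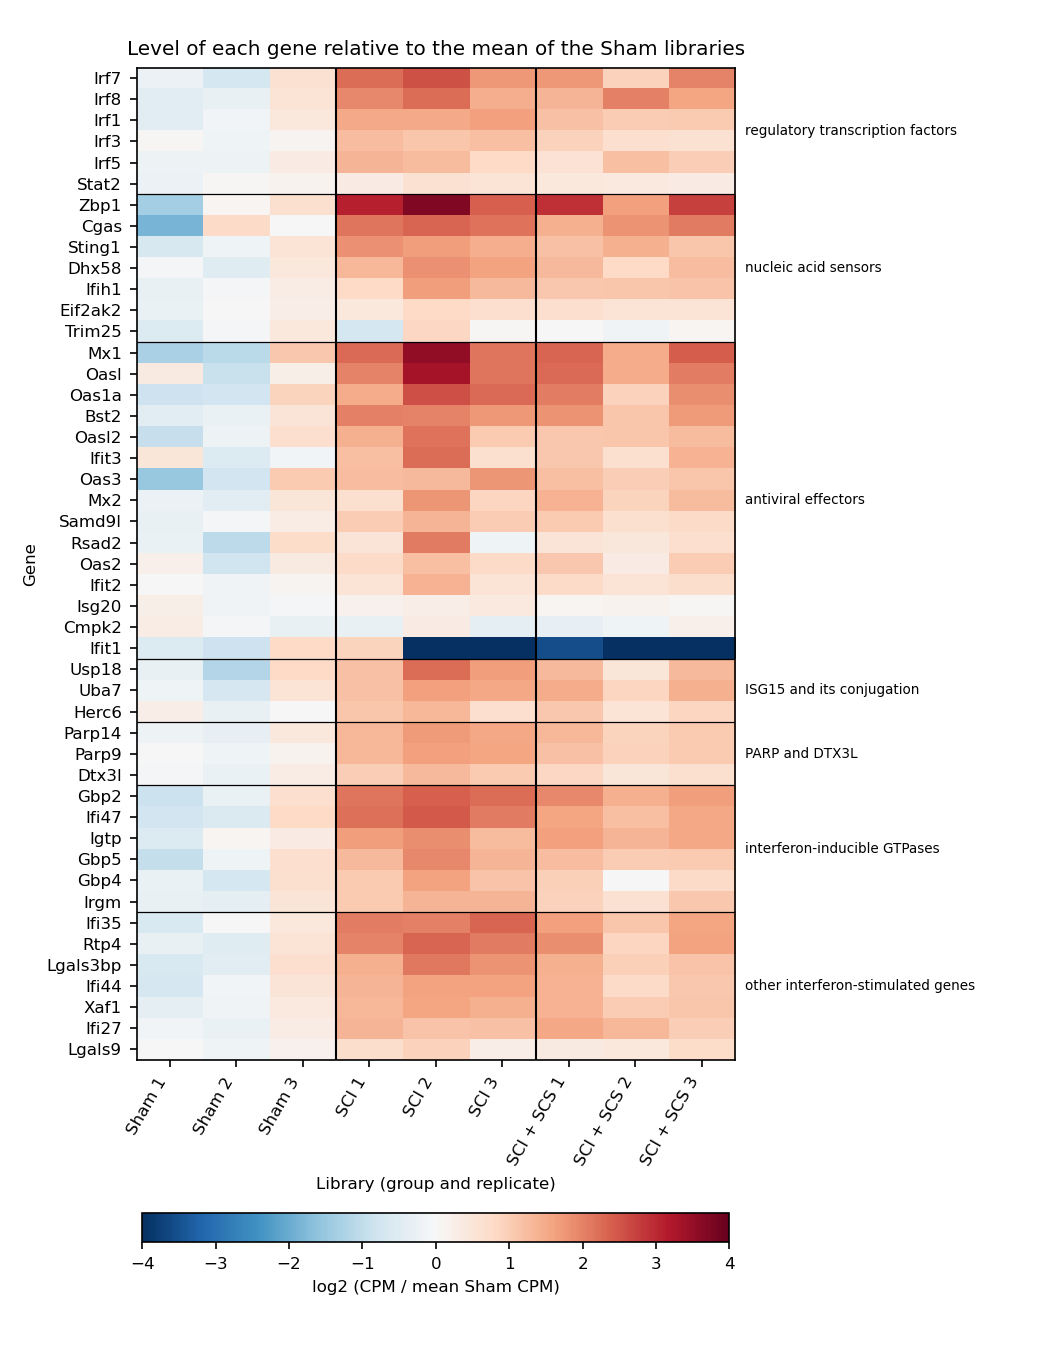
Heat map of the 47 members (rows, grouped by role) in the 9 libraries (columns), coloured by log2 of CPM over the mean CPM of the Sham libraries and limited to 4 in either direction. Nearly all rows are red in the injured groups, with paler shades in SCI + SCS, and Ifit1 is dark blue in 5 libraries.

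All 6 transcription factors with a row were higher by adjusted p, and 5 passed the fold threshold. Irf7, the amplifier of type I interferon transcription (chromosome 1, 196367361-196370832, mRatBN7.2), was at 9.85, 7.17 and 18 CPM in Sham, 54.7, 68.8 and 39.1 CPM in SCI and 38.6, 22.1 and 46.2 CPM in SCI + SCS libraries. Its SCI libraries did not overlap with Sham and the difference was 4.6-fold (log2 difference 2.20 ± 0.38 SE; edgeR quasi-likelihood, adjusted p = 0.00462). Irf8, a factor of microglia and myeloid cells, was at 7.38, 8.17 and 14.5 CPM in Sham and 38.4, 46.7 and 27.3 CPM in SCI, a 3.7-fold difference (1.89 ± 0.32; edgeR, adjusted p = 0.0043). Irf1, which drives interferon-gamma target genes, went from 6.97, 8.79 and 12.8 to 27, 27.4 and 29.8 CPM (1.55 ± 0.22; edgeR, adjusted p = 0.00268). Each of the 3 was clear of the Sham range. Irf3 and Irf5 rose 2.24-fold and 2.2-fold. Stat2, a signal transducer of the type I interferon receptor, differed by 1.4-fold, below the fold threshold (edgeR, adjusted p = 0.0213).

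Among 7 nucleic acid sensors and their signalling partners, 5 rose. Zbp1, a sensor of Z-form nucleic acid that can start necroptosis, showed the largest difference of all members: 0.219, 0.59 and 0.863 CPM in Sham against 4.8, 7.28 and 2.95 CPM in SCI, or 8.82-fold (3.14 ± 0.57; edgeR, adjusted p = 0.00541). Cgas, the cytosolic DNA sensor, was scarce, at 0.0626, 0.386 and 0.23 CPM in Sham and 1, 1.14 and 1.01 CPM in SCI (2.17 ± 0.59; edgeR, adjusted p = 0.0223). Its adaptor Sting1 went from 3.54, 4.86 and 8.1 to 19.4, 17.7 and 15 CPM (1.64 ± 0.31; edgeR, adjusted p = 0.00604). Both members of the DNA-sensing pair passed, although Cgas lost its call without Sham replicate 3, SCI replicate 2 or SCI replicate 3 (edgeR, adjusted p = 0.0585, 0.0624 and 0.0597). The RNA sensors Dhx58 and Ifih1 rose 3.02-fold and 2.44-fold. Eif2ak2, which encodes the kinase PKR, differed by 1.53-fold with an adjusted p of 0.0204 (edgeR), and Trim25, a ubiquitin ligase of RIG-I signalling, gave 0.17 ± 0.44 on the log2 scale (edgeR, adjusted p = 0.771).

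The antiviral effectors were the least uniform role, with 8 of 15 rising. Mx1, a dynamin-like GTPase that blocks viral replication, was at 2.16, 2.53 and 11.3 CPM in Sham and 25.7, 62.5 and 23.7 CPM in SCI, or 6.96-fold higher (2.80 ± 0.75; edgeR, adjusted p = 0.0216). Oasl, of the oligoadenylate synthetase family, went from 1.46, 0.613 and 1.32 to 4.46, 11.3 and 4.96 CPM (2.60 ± 0.50; edgeR, adjusted p = 0.00689), and Oas1a, which makes the activator of RNase L, from 2.58, 2.68 and 8.39 to 12.7, 27.2 and 21.7 CPM (2.16 ± 0.54; edgeR, adjusted p = 0.0166). SCI replicate 2 was the highest library for all 3. Mx1 lost its call without Sham replicate 1 (edgeR, adjusted p = 0.0502), Sham replicate 2 (0.0689) or SCI replicate 2 (0.0659), and Oas1a without Sham replicate 2 (0.0564) or SCI replicate 2 (0.0533). Bst2, which tethers budding virions, rose 3.73-fold, and Oasl2, Ifit3, Mx2 and Samd9l rose between 2.18-fold and 3.07-fold.

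The other 7 effectors did not pass both thresholds. Ifit2 differed by 1.84-fold with an adjusted p of 0.031 (edgeR). Oas2, Oas3 and Rsad2, which encodes viperin, had estimates of 0.91 ± 0.38, 1.42 ± 0.65 and 1.12 ± 0.70 on the log2 scale (edgeR, adjusted p = 0.0867, 0.112 and 0.218). Cmpk2, which lies beside Rsad2 on chromosome 6 and was at 16.4 to 26.2 CPM in all groups, gave -0.10 ± 0.24 (edgeR, adjusted p = 0.739). Isg20, a 3′ exonuclease, occupied a pair of rows under the same identifier. The row with the higher total gave 0.25 ± 0.15 (edgeR, adjusted p = 0.207), the other gave 1.27 ± 0.33 (adjusted p = 0.0195), and their sum gave 0.42 ± 0.13 (adjusted p = 0.0379).

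ISG15 is a ubiquitin-like protein that is attached to other proteins, and all 3 genes of its conjugation system with a row rose. Usp18, which removes ISG15 and damps interferon receptor signalling, was at 4.1, 2.24 and 8.67 CPM in Sham and 11.4, 23.6 and 16 CPM in SCI, or 3.36-fold higher (1.75 ± 0.52; edgeR, adjusted p = 0.03). Uba7, the activating enzyme, went from 4.03, 2.85 and 6.64 to 10.2, 14 and 13.1 CPM (1.45 ± 0.32; edgeR, adjusted p = 0.0112), and Herc6, a ligase, from 7.06, 4.78 and 5.74 to 12.6, 14.7 and 9.32 CPM (1.04 ± 0.24; edgeR, adjusted p = 0.0119). The groups did not overlap for any of them. Usp18 lost its call without Sham replicate 1 (edgeR, adjusted p = 0.082), Sham replicate 2 (0.0611), SCI replicate 2 (0.0936) or SCI replicate 3 (0.0694), and Herc6 fell below the fold threshold without Sham replicate 2 (log2 difference 0.91) or SCI replicate 2 (0.88).

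Parp14, Parp9 and Dtx3l, encoding an ADP-ribosylation module of the interferon response, all rose. Parp9 was at 15.1, 13.2 and 16.3 CPM in Sham and 37.1, 46.5 and 44.6 CPM in SCI, and had the smallest adjusted p among the members (1.51 ± 0.13; edgeR, adjusted p = 0.00116). Parp14 went from 9.55, 8.74 and 14.7 to 27.8, 36 and 32.2 CPM (1.53 ± 0.22; edgeR, adjusted p = 0.00279), and Dtx3l from 8.8, 7.78 and 11.5 to 18.4, 22.9 and 19.4 CPM (1.09 ± 0.18; edgeR, adjusted p = 0.00399). Dtx3l fell below the fold threshold without Sham replicate 2 (log2 difference 0.97) or SCI replicate 2 (0.99). The gene models of Parp9 and Dtx3l overlap on opposite strands of chromosome 11, and since counting by strand is not stated, reads from the shared stretch cannot be assigned to either.

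The interferon-inducible GTPases, which act on membranes around intracellular pathogens, rose in 6 of 6 cases. Gbp2 was at 8.57, 13 and 25 CPM in Sham and 68.1, 81.6 and 73.8 CPM in SCI, or 4.76-fold higher (2.25 ± 0.37; edgeR, adjusted p = 0.00418). Ifi47 went from 3.98, 4.59 and 11.8 to 31.1, 37.2 and 28.8 CPM (2.24 ± 0.42; edgeR, adjusted p = 0.00634), and Igtp from 7.24, 11.1 and 13.3 to 33.8, 38.4 and 25.5 CPM (1.61 ± 0.26; edgeR, adjusted p = 0.00361). The highest SCI library was 1.2 times the lowest for Gbp2 and 1.29 times for Ifi47, against 2.64 times for Mx1, 2.53 for Oasl and 2.14 for Oas1a. The roles overlapped in this ratio, which was 1.51 for Igtp, 1.51 for Gbp4 and 1.55 for Gbp5. For the effectors Bst2, Samd9l and Isg20 it was 1.2, 1.27 and 1.15. Gbp5, Gbp4 and Irgm rose 2.91-fold, 2.42-fold and 2.38-fold.

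Of 7 other interferon-stimulated genes, 6 rose. Ifi35 was at 7.42, 11.3 and 15.2 CPM in Sham and 47, 45.8 and 57.1 CPM in SCI (2.13 ± 0.26; edgeR, adjusted p = 0.00192). Its model overlaps Vat1, which is on the other strand and had 8583 to 23589 counts per library, against at least 474 for Ifi35. Rtp4, a receptor chaperone, went from 4.28, 3.75 and 7.75 to 20.8, 26.6 and 22.1 CPM (2.12 ± 0.29; edgeR, adjusted p = 0.00256), and overlaps Masp1 on the other strand. Lgals3bp, a secreted glycoprotein, went from 30.6, 34.3 and 74.7 to 125, 202 and 161 CPM (1.79 ± 0.37; edgeR, adjusted p = 0.00884). Its model overlaps rows of Cant1 on the same strand. Those rows had 2083 to 3265 and 9131 to 34309 counts per library, against at least 1952 for Lgals3bp. Ifi44, Xaf1 and Ifi27 rose 2.85-fold, 2.69-fold and 2.3-fold, and Lgals9, at 1.56-fold, stayed below the fold threshold (edgeR, adjusted p = 0.0279).

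Compared per length, the members covered a wide range of abundance. Ifi27 had the highest FPKM, with means of 135.6 ± 26.6 in Sham, 314.5 ± 4.39 in SCI and 345.3 ± 64.1 in SCI + SCS (SD, n = 3). Bst2 was next, at 30.6 ± 11.6, 114.7 ± 10.1 and 93.5 ± 22.4 FPKM. Irf3 led the transcription factors with a mean of 25.9 FPKM in SCI, Gbp2 the GTPases with 23, Parp9 its role with 8.99, Usp18 its role with 7.79 and Eif2ak2 the sensors with 7.69. At the other end were Cgas, at 0.352 FPKM, and Oas3, at 0.216 FPKM, in their highest group. The SDs of Ifi27 and Bst2 in the injured groups overlap, and Zbp1 and Oasl, among the 3 members with the largest fold differences, reached 2.16 and 2.84 FPKM.

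The differences were also computed without the muscle-rich libraries. With SCI replicate 2, which had 6.2 CPM of muscle markers, as the only SCI library, the median log2 difference of the members was 1.68. The spread of the lone library was then assumed to match that of Sham. SCI replicate 2 was also the highest SCI library for 35 of 47 members, against 33.0% of all genes, so muscle content and this order cannot be told apart here. Leaving out SCI replicate 2 instead gave a median of 1.34 and 24 members higher.

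Ifit1, an RNA-binding effector of the same cluster as Ifit2 and Ifit3, behaved unlike every other member. Its counts were 208, 236 and 718 in Sham, 687, 12 and 12 in SCI and 29, 11 and 8 in SCI + SCS libraries. Thus SCI replicate 1 was as high as the highest Sham library, while the other 5 injured libraries were lower than every Sham library, with a gap of 6.59-fold between the lowest high and the highest low library in CPM. In SCI against Sham the estimate was -0.66 ± 1.41 on the log2 scale (edgeR, adjusted p = 0.719), and without SCI replicate 1 it was -4.78 ± 0.68 (adjusted p = 0.00774). In SCI + SCS against SCI the estimate was -3.70 ± 1.59 (edgeR, adjusted p = 0.211), and without SCI replicate 1 it turned to 0.41 ± 0.69 (adjusted p = 0.75). Ifit1 was the only row of the table in which the same 4 libraries exceeded the other 5 by at least 5-fold, with at least 20 counts in each of the 4.

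The neighbours on chromosome 1 did not share the pattern. Ifit2 (232102570-232108635) was at 9.03 to 10.9 CPM in Sham and 14.5 to 26.6 CPM in the injured groups. Ifit3 (232114166-232119307) was at 3.78 to 7.63 CPM in Sham and 8.59 to 25.9 CPM in the injured groups. The model of Ifit1 (232127170-232154435) lies within that of Ifit1bl (232122562-232167518), which is on the other strand and had 55 to 155 counts per library. The groups of Ifit1bl overlapped between SCI and Sham, and its difference was 0.49 ± 0.36 on the log2 scale (edgeR, adjusted p = 0.29).

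**Figure D3:**
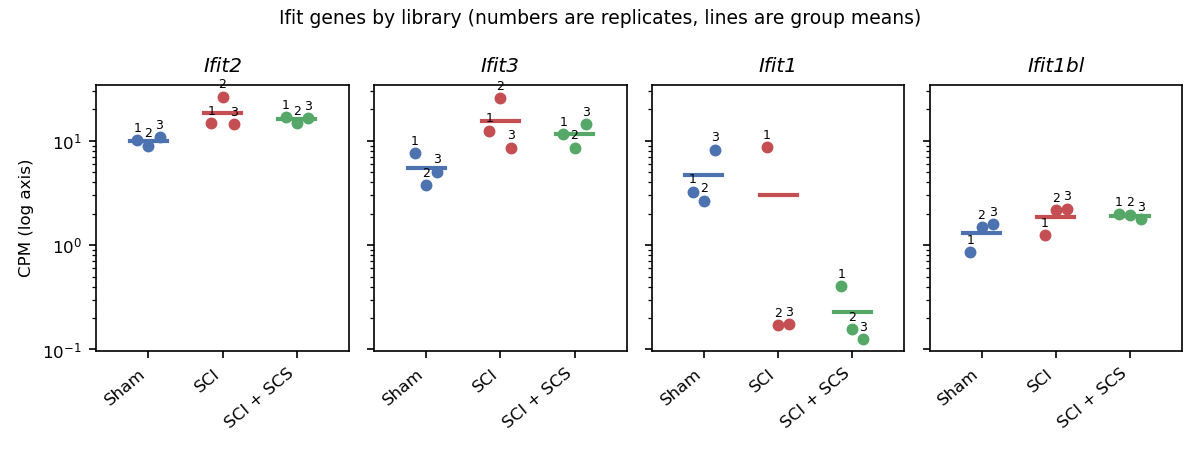
CPM on a log axis of Ifit2, Ifit3, Ifit1 and Ifit1bl in the Sham, SCI and SCI + SCS libraries, with replicate numbers beside the points and lines at the group means. Ifit1 splits into 4 high libraries (Sham and SCI replicate 1) and 5 low libraries, at or below 0.407 CPM, whereas the other genes do not.

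The next comparison asked whether stimulation altered these genes in the injured cord. No member passed both thresholds in SCI + SCS against SCI, in either direction, where 0.00566% of 17663 genes were higher (a single gene) and 0% lower (edgeR quasi-likelihood test). With DESeq2 and the same thresholds again no member was called, where 2.14% of genes were lower and 2.53% higher. The estimates were below 0 for 44 of 47 members, against 50.7% of all genes, and the median was -0.42, against -0.0055 for all genes. At an unadjusted p under 0.05, 14 members were lower and none was higher, where 10.9% and 13.3% of genes were (edgeR). Every SCI + SCS library lay below every SCI library for 17 members, against 13.9% of all genes.

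The number of members lower at an unadjusted p under 0.05 varied from 8 to 18 when 1 library was left out. It was 8 without SCI + SCS replicate 2, 9 without SCI replicate 2 (median of the members -0.23) and 18 without SCI replicate 1 (median -0.48), the library with most skeletal muscle RNA. With SCI replicate 2, poor in muscle RNA, as the only SCI library the median was -0.56. That library was also the highest SCI library for 35 of 47 members, against 33.0% of all genes. Muscle content and this order cannot be told apart in that fit. With all 6 libraries of the comparison, the estimate was above 0 only for Mx2 (0.04), Ifi27 (0.10) and Cmpk2 (0.02). DESeq2 without a fold threshold gave an adjusted p under 0.05 for 9 members, all lower (Irf1, Irf3, Ifi35, Parp9, Parp14, Dtx3l, Gbp2, Ifi47 and Lgals3bp), where 6.9% of genes were lower and 8.83% higher, while edgeR gave none.

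In the same comparison the estimate was below 0 for 9 of 11 microglia and macrophage markers, 8 of 8 T and NK cell markers and 5 of 5 fibroblast markers (edgeR). At an unadjusted p under 0.05, 5 of 11 microglia and macrophage markers, 5 of 8 T and NK cell markers and 4 of 5 fibroblast markers were lower in SCI + SCS than in SCI and none was higher, where 10.9% of all genes were lower, and none was called after adjustment (edgeR). The estimate was above 0 for 5 of 5 astrocyte, 5 of 5 oligodendrocyte and 6 of 6 neuron markers. Of each of these lists 3 were higher at an unadjusted p under 0.05 (edgeR), where 13.3% of all genes were. DESeq2 called 3 neuron markers higher at both thresholds. Markers of B cells, neutrophils, plasmacytoid dendritic cells and endothelium went both ways. The libraries of 5 microglia and macrophage markers did not overlap (Aif1, Cd68, C1qa, Tyrobp and Ptprc), with Cd68 at 257, 309 and 260 CPM in SCI and 177, 168 and 174 CPM in SCI + SCS (-0.66 ± 0.10; edgeR, adjusted p = 0.0719; DESeq2, adjusted p = 6.47e-07). The summed levels of the microglia and macrophage list overlapped, at 1990 to 2629 CPM in SCI and 1784 to 2048 CPM in SCI + SCS. Cd3e, a T cell receptor subunit, was at 2.19, 2.38 and 1.69 CPM in SCI and 0.617, 0.156 and 0.641 CPM in SCI + SCS (-2.14 ± 0.51; edgeR, adjusted p = 0.0904), and 3 T and NK cell markers passed both thresholds with DESeq2. Skeletal muscle markers were at 6.2 to 2985 CPM in SCI and 6.09 to 6.89 CPM in SCI + SCS. The part of these differences in the estimates of the members was not tested.

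The members with the smallest unadjusted p illustrate the size of the difference. Ifi47 was at 31.1, 37.2 and 28.8 CPM in SCI and 20.3, 15.6 and 19.9 CPM in SCI + SCS (-0.79 on the log2 scale, 95% interval -1.13 to -0.45; edgeR, adjusted p = 0.0755). Irf1 was at 27, 27.4 and 29.8 against 21.6, 19 and 19.5 CPM (-0.48, -0.69 to -0.26; edgeR, adjusted p = 0.0774). Ifi35 was at 47, 45.8 and 57.1 against 35.2, 24.1 and 33.7 CPM (-0.68, -1.07 to -0.29; edgeR, adjusted p = 0.091). In each of these the stimulated libraries lay below all injured ones but above all Sham libraries. Gbp2 (-0.57), Irf3 (-0.42), Parp9 (-0.46), Dtx3l (-0.44), Lgals3bp (-0.62), Parp14 (-0.44) and Sting1 (-0.40) had libraries that did not overlap either, with adjusted p from 0.093 to 0.151 (edgeR).

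By role, all 3 PARP and DTX3L genes were lower at an unadjusted p under 0.05 (edgeR), as were 4 of 7 other interferon-stimulated genes, 3 of 6 GTPases, 2 of 6 transcription factors, 2 of 7 sensors, 0 of 3 genes of ISG15 conjugation and 0 of 15 antiviral effectors, where 10.9% of all genes were lower. Differences between roles were not tested. Among the effectors, Mx1 gave -0.66 (-1.65 to 0.33), Oasl -0.63 (-1.56 to 0.30) and Oas1a -0.48 (-1.32 to 0.36). The median estimate was -0.33 for the effectors and -0.51 for the GTPases. Igtp (-0.09, -0.47 to 0.28) and Eif2ak2 (-0.03, -0.29 to 0.23) were among the members whose interval lay within a 1.5-fold difference in both directions.

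**Figure D4:**
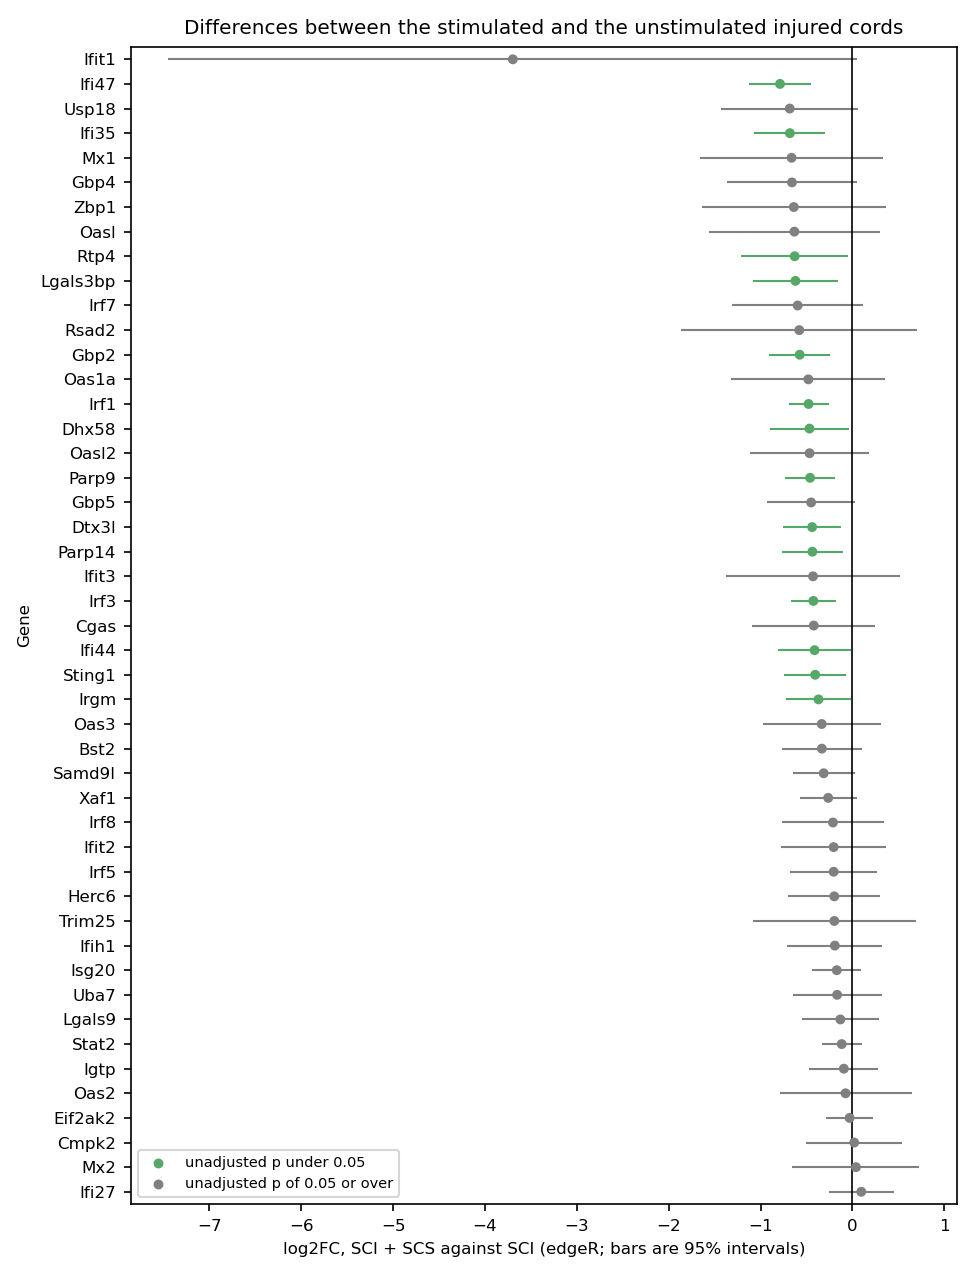
Log2 difference of the 47 members between SCI + SCS and SCI with 95% intervals from edgeR (x axis), ordered by the estimate, with members at an unadjusted p under 0.05 in green. The estimates of 44 members lie below 0, and 14 intervals exclude 0 at the unadjusted level.

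Against Sham, the stimulated cords still showed raised members. In SCI + SCS against Sham, 23 members rose past both thresholds, where 6.28% of 17640 genes did, and 1 fell (Ifit1), where 5.44% of genes did (edgeR quasi-likelihood test). By adjusted p alone 33 were higher, against 16.2% of genes. The libraries did not overlap for 38 members that were higher, against 27% of genes. The median log2 difference was 1.10, against 0.0077 for all genes. This comparison shares its Sham libraries with SCI against Sham, so the 2 sets of differences are not independent of each other.

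The count of 23 depended on single libraries. It was 5 without Sham replicate 2, 5 without SCI + SCS replicate 1 and 11 without SCI + SCS replicate 3, although the median of the members stayed above 1 in these fits. Igtp and Irf8 were the only members among those described here that kept their call under every alternative setting. Igtp was at 7.24, 11.1 and 13.3 CPM in Sham and 32.9, 27.2 and 30.9 CPM in SCI + SCS (1.53 ± 0.22; edgeR, adjusted p = 0.00663). Irf8 was at 7.38, 8.17 and 14.5 CPM in Sham and 25.8, 40.9 and 29.8 CPM in SCI + SCS (1.69 ± 0.30; edgeR, adjusted p = 0.011). In SCI against the same Sham libraries these genes differed by 1.61 ± 0.26 and 1.89 ± 0.32.

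Across the roles, 6 of 7 other interferon-stimulated genes rose in SCI + SCS against Sham, 4 of 7 sensors, 4 of 15 effectors, 3 of 6 transcription factors, 3 of 6 GTPases, 2 of 3 of the PARP and DTX3L group and 1 of 3 of the ISG15 group. The sensor Zbp1 was again the highest, at 4.18, 1.74 and 3.68 CPM against 0.219, 0.59 and 0.863 CPM in Sham (2.51 ± 0.55; edgeR, adjusted p = 0.0188), but lost its call without Sham replicate 2 (adjusted p = 0.0681), SCI + SCS replicate 1 (0.0696) or SCI + SCS replicate 3 (0.0545). Oasl was at 5.4, 3.18 and 4.71 CPM (1.98 ± 0.38; edgeR, adjusted p = 0.0134), and lost its call without SCI + SCS replicate 1 (adjusted p = 0.0532). Mx1, at 27, 14.8 and 28.5 CPM, and Oas1a, at 18.7, 8.64 and 16.6 CPM, did not overlap with Sham and fell just short (2.14 ± 0.68 and 1.69 ± 0.54; edgeR, adjusted p = 0.0519 and 0.0533). For these effectors SCI + SCS replicate 2 was the lowest stimulated library.

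Other members past both thresholds included Gbp2, at 58.6, 41.4 and 49.2 CPM (1.69 ± 0.38; edgeR, adjusted p = 0.0202), Irf7 (1.61 ± 0.41; adjusted p = 0.0271), Bst2 (1.58 ± 0.30; adjusted p = 0.0127), Rtp4 (1.51 ± 0.36; adjusted p = 0.0238) and Ifi27 (1.31 ± 0.19; adjusted p = 0.00672). Of these, Ifi27 kept its call whichever library was left out, while Gbp2, Irf7, Bst2 and Rtp4 lost theirs without Sham replicate 2 or without SCI + SCS replicate 1 (adjusted p from 0.0516 to 0.0879, edgeR). Gbp2 also lost its call without SCI + SCS replicate 3 (adjusted p = 0.054), as did Irf7 (0.0775) and Rtp4 (0.0662), both of which lost it without Sham replicate 1 too (0.0676 and 0.0595). Ifit1 fell by 4.34 on the log2 scale (SE 0.66; edgeR, adjusted p = 0.00742), being the only member that fell, and it was lower in 3 of 3 stimulated libraries than in any Sham library.

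The remaining members with the largest called differences of their roles were nearer to the fold threshold. The DNA-sensing adaptor Sting1, at 12.5, 14.8 and 11.8 CPM, gave 1.25 ± 0.30 (edgeR, adjusted p = 0.0241) and the RNA sensor Dhx58 1.14 ± 0.25 (adjusted p = 0.0196). Ifi35 gave 1.46 ± 0.28 (adjusted p = 0.0127), Ifi47 1.46 ± 0.42 (adjusted p = 0.0399) and Uba7 1.29 ± 0.34 (adjusted p = 0.0303). For Parp14, Irf1 and Parp9 the differences were 1.10 ± 0.22, 1.08 ± 0.22 and 1.06 ± 0.12 (edgeR, adjusted p = 0.015, 0.0153 and 0.00388). Each of these 8 lost its call without Sham replicate 2 and also without SCI + SCS replicate 1, where Parp9 kept an adjusted p of at most 0.0266 but fell to log2 differences of 0.98 and 0.99, and the others had adjusted p of 0.0528 to 0.121 (edgeR). Without SCI + SCS replicate 3, calls were also lost for Sting1 (adjusted p = 0.0555), Dhx58 (0.059), Ifi47 (0.098) and Uba7 (0.0826). Sting1 and Ifi47 lost theirs without SCI + SCS replicate 2 as well (0.0765 and 0.079), and Irf1, Ifi47 and Uba7 without Sham replicate 1 (log2 difference 0.90 for Irf1, adjusted p = 0.076 and 0.0727 for the others).

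**Figure D5:**
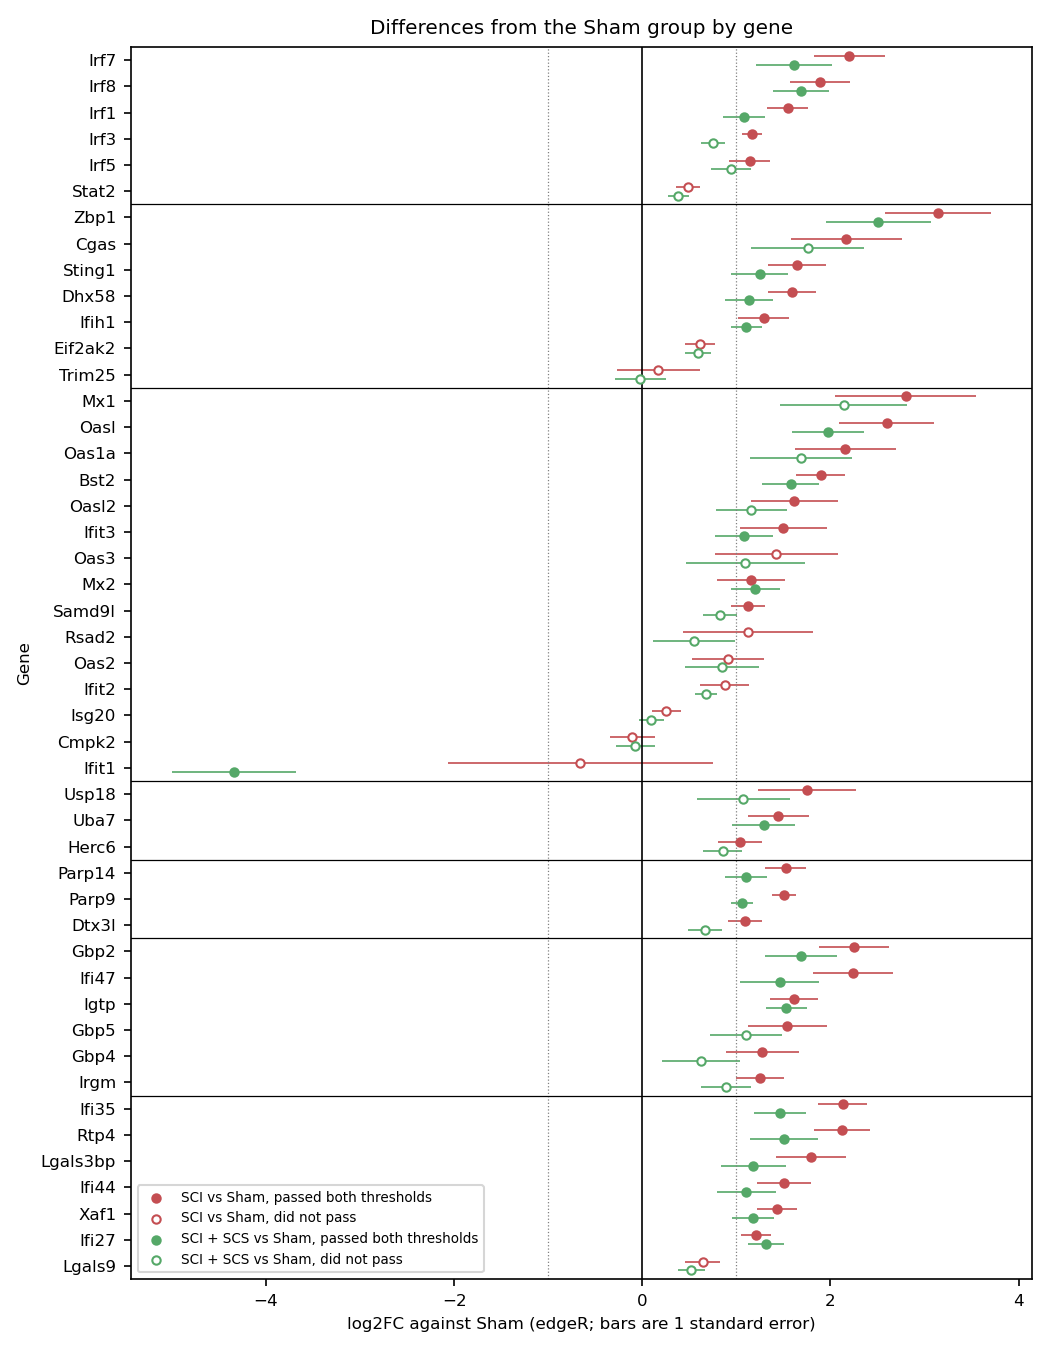
Log2 difference from Sham of each member in SCI (red) and in SCI + SCS (green), grouped by role, with bars of 1 standard error from edgeR, filled points for members past both thresholds and dotted lines at a 2-fold difference. Of the 47 members, 36 rose in SCI, and 23 rose and 1 (Ifit1) fell in SCI + SCS.

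The members also moved together within groups, between rats given the same treatment. Sham replicate 3 was the highest Sham library for 41 of 47 members (87.2%), against 40.5% of 18091 genes. SCI replicate 2 was the highest SCI library for 35 members (74.5%, against 33.0% of genes), and SCI + SCS replicate 1 the highest stimulated library for 32 (68.1%, against 36.8%), with replicate 2 the lowest for 34. The ratio of the highest to the lowest library had a median of 1.97 in Sham, 1.43 in SCI and 1.41 in SCI + SCS over the members, against 1.33, 1.33 and 1.25 over all genes. Sham replicate 3 also had the highest sums of microglia and macrophage, T and NK cell, and fibroblast markers among the Sham libraries. The same held for oligodendrocyte, astrocyte, neutrophil, endothelium and plasmacytoid dendritic cell markers, while its sum of neuron markers was the lowest. SCI replicate 2 and SCI + SCS replicate 1 did not have the highest microglia and macrophage sum of their groups (2410 of 1990 to 2629 CPM and 1822 of 1784 to 2048 CPM). Both had the lowest T and NK cell sum of their groups (138.7 and 113.9 CPM), most of it Cd4 (106.1 and 99.13 CPM). Other markers of that list did not all keep this order. In replicates 1, 2 and 3, Cd8a was at 10.79, 14.37 and 14.56 CPM in SCI and 6.341, 6.452 and 11.25 CPM in SCI + SCS. Cd8b was at 8.253, 11.39 and 9.118 CPM in SCI and 5.345, 4.864 and 5.663 CPM in SCI + SCS. SCI + SCS replicate 1 had the highest fibroblast sum of its group (2429 CPM) and SCI + SCS replicate 2 the lowest (1473 CPM), while SCI replicate 2, at 3225 CPM, lay between the other SCI libraries.

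The rest of the pathway was followed in a list of 56 further genes, of which 48 had a row. In SCI against Sham 22 of the 42 that passed the filter rose and none fell (edgeR), where 13.4% of all genes rose and 13.6% fell. In SCI + SCS against SCI none of 43 was called by edgeR, where 0.00566% of all genes were higher and 0% lower, and DESeq2 called 2 lower at the same thresholds, Ifitm1 and Ifi44l (log2 difference -1.06, adjusted p = 0.0231), where 2.14% of all genes were. In SCI + SCS against Sham 18 of 42 rose and none fell, where 6.28% of all genes rose and 5.44% fell (edgeR). Interferon genes themselves were hardly detected at 35 days: Ifnb1, Ifna1, Ifna4, Ifng and Ifnk had 5, 15, 10, 5 and 0 counts over all 9 libraries and Ifne had 82. At this depth a difference in interferon transcripts was not detectable. Of 4 listed markers of plasmacytoid dendritic cells, which are strong interferon producers, Spib rose in SCI against Sham from 0.125, 0.136 and 0.288 to 0.672, 1.16 and 0.55 CPM (2.09 ± 0.51; edgeR, adjusted p = 0.0157). Tcf4, which neural cells also express and which makes up most of the summed level, was lower by less than 2-fold (-0.71 ± 0.14; adjusted p = 0.0074). In the Sham and SCI libraries Ccr9 was at 0 to 0.666 CPM, and Siglech was at 0 in all but SCI replicate 3.

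Of 9 receptor and JAK-STAT genes, 2 rose in SCI. Ifnar2, a chain of the type I interferon receptor, was at 23.4, 26 and 28.2 CPM in Sham and 67, 70.6 and 62.1 CPM in SCI (1.35 ± 0.11; edgeR, adjusted p = 0.00104), and Ifnlr1, of the type III receptor, was at 1.8, 1.25 and 1.92 CPM and 5.65, 4.64 and 4.01 CPM (1.51 ± 0.26; edgeR, adjusted p = 0.0045). Ifngr1, Ifngr2 and Tyk2 were higher by adjusted p with differences of less than 2-fold, and the kinases Jak1 (-0.03 ± 0.10) and Jak2 (-0.01 ± 0.16) stayed close to the Sham level. Ikbke, a kinase that activates IRF3, rose from 2.83, 3.64 and 5.18 to 20.4, 20 and 20.4 CPM (2.37 ± 0.23; edgeR, adjusted p = 0.0013), whereas its relative Tbk1 gave -0.21 ± 0.13 (adjusted p = 0.219). Socs3, an inhibitor of JAK signalling, rose by 2.61 ± 0.52 (adjusted p = 0.00768) and Socs1 by 1.27 ± 0.29 (adjusted p = 0.0121). Adar, an RNA editing enzyme that limits sensing of self RNA, was lower by less than 2-fold (-0.51 ± 0.12; adjusted p = 0.0148).

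The largest differences in the list belonged to Ifitm1, a membrane protein that restricts viral entry, at 1.66, 4.54 and 6.2 CPM in Sham, 179, 249 and 230 CPM in SCI and 128, 79.4 and 71 CPM in SCI + SCS. Its difference was 5.71 ± 0.51 in SCI against Sham (edgeR, adjusted p = 0.0012) and -1.23 ± 0.24 in SCI + SCS against SCI (edgeR, adjusted p = 0.0774), and all stimulated libraries lay below all SCI libraries. With DESeq2 the latter was -1.24 with an adjusted p of 2.47e-05, past both thresholds. The chemokine gene Cxcl9 and Ifitm3 followed, at 3.24 ± 0.32 and 2.93 ± 0.29 (edgeR, adjusted p = 0.00138 and 0.00137).

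Several members are neighbours in the genome. Ifit2, Ifit3 and Ifit1 lie on chromosome 1, Gbp5, Gbp4 and Gbp2 on chromosome 2 between 231237748 and 231348571, Oas1a, Oas3 and Oas2 on chromosome 12 between 35669801 and 35829371, and Oasl and Oasl2 on the same chromosome between 41682900 and 41722547 (mRatBN7.2). Estimates of neighbours differed in size after injury, though their 95% intervals overlapped and these differences were not tested. Oas1a rose 4.47-fold, while the estimates of Oas2 (1.88-fold) and Oas3 (2.68-fold) did not pass. Mx1 rose 6.96-fold and Mx2 2.23-fold, and Gbp2 rose 4.76-fold and Gbp4 2.42-fold. Genes of such families share sequence, so counts of close relatives may be uncertain where reads match several of them.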

How the data were processed

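The authors deposited a gene count table and a table of FPKM values (fragments scaled to gene length and library size) for 9 libraries of polyA-selected RNA sequenced as read pairs. Per the labels, reads were trimmed with fastp 0.23.2 and aligned with HISAT2 2.2.1 to mRatBN7.2. The counting program, annotation and strand setting are not given in the sources used here. Raw counts, as deposited, were tested with edgeR 4.0.16 (TMM scaling, filterByExpr, quasi-likelihood test, R 4.3.3) on the 6 libraries of each comparison with no covariate, and p-values were adjusted over all genes tested. A gene was called at an absolute log2 difference over 1 and an adjusted p under 0.05. All columns of values were used. On several rows each were 494 identifiers, which took up 1081 rows. FPKM values served for levels per length and for limma 3.58.1 on log2(FPKM + 1) and log2(FPKM + 0.1), with a mean FPKM of at least 0.1, where a fold understates the change of low genes.

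Members and lists were chosen with earlier results of these data known. Genes described in full were, within each role, the 3 called members with the largest differences whose groups did not overlap, in SCI + SCS against SCI the 10 with the smallest unadjusted p, the member of each role with the highest FPKM, the 3 largest of the pathway list, and, for promoters, the 6 largest called members with a window. Other genes were named by role or after their values were seen. Each library is labelled as a separate sample of a group. The labels do not divide the libraries into batches, so a batch effect could not be examined. P-values set each group difference against the variation between these samples, as estimated in a fit that draws on all tested genes. Comparisons of 3 libraries against 3 allow no exact permutation p under 0.1. Count floors cover counting error only. Alternatives were DESeq2 1.42.0, other filters, size factors, all 9 libraries in 1 fit, a replicate block, summed rows, FPKM and each library left out in turn. The use of SCI replicate 2 alone was chosen after seeing the data. The scripts were tested on simulated data. Promoter windows came from RefSeq (GRCr8), and no coordinate was converted between builds.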

Additional observations from a re-analysis of the deposited data

How the results depend on the processing

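The directions of the 21 members named in SCI against Sham, the 10 in SCI + SCS against SCI and the 18 in SCI + SCS against Sham held under each alternative tried. In SCI against Sham 36 members were higher, and 24 to 35 when 1 library was left out. With SCI replicate 2 as the only SCI library 4 members were higher, fewer samples then entering the fit. The number lower was 0 to 1 when 1 library was left out, the 1 being Ifit1 without SCI replicate 1. In SCI + SCS against SCI no member was called in either direction under any alternative that kept both thresholds, and 14 were lower at an unadjusted p without a fold threshold. That number was 6 with all 9 libraries in 1 fit and 9 in limma on log2(FPKM + 1). In SCI + SCS against Sham 23 members were higher. The number was 14 in limma on log2(FPKM + 1), 38 at an unadjusted p without a fold threshold, and 5 to 32 when 1 library was left out, with the 32 reached without Sham replicate 3. The number lower went from 1 to 0 with at least 10 counts in every library, which removes Ifit1, with all 9 libraries in 1 fit and in limma on log2(FPKM + 1). With all 9 libraries Ifit1 gave -4.35 ± 1.51 and missed the threshold on adjusted p (edgeR, 0.0558). In limma it gave -0.67 ± 0.17 (adjusted p = 0.0282) and missed the fold threshold. DESeq2 gave no p-value for Ifit1 in SCI against Sham or in SCI + SCS against SCI.

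Replicate numbers are shared between groups in the labels, but nothing ties the same number to a shared animal or day. The correlations of deviations between same-numbered libraries were -0.0399 to 0.27 in SCI against Sham, -0.236 to 0.00758 in SCI + SCS against SCI and -0.361 to 0.0269 in SCI + SCS against Sham. With a replicate block 34 members were higher in SCI against Sham, 0 were called in SCI + SCS against SCI, and 10 were higher and 1 lower in SCI + SCS against Sham. Of 21 members named in SCI against Sham, 14 kept their call under every alternative that left the filter on low counts unchanged, other than the use of SCI replicate 2 alone, as did 2 of 18 in SCI + SCS against Sham. Depth limited what could be said of the interferon genes, with 0 to 82 counts over all 9 libraries.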
